A study of Mus musculus with 18 samples.

Results

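Transcripts of 7 chemokine receptor genes that macrophages can express, Cx3cr1, Ccr1, Ccr2, Ccr3, Ccr7, Ccrl2 and Cxcr4, were followed across 18 libraries of mouse bone marrow-derived macrophages. The genes were chosen by symbol, and all 7 are among the 24052 genes of the deposited count tables. Marrow of C57BL/6 mice had been grown into macrophages with M-CSF, a growth factor, at 20 ng/ml, and every group shares this step. In experiment 1, wild-type cells were given vehicle or 0.25 mM dimethyl itaconate, an ester of the metabolite itaconate that enters cells, for 12 h. LPS, a bacterial endotoxin, followed at 100 ng/ml for 4 h in some cultures and was left out in others. This gave 4 groups of 3 libraries, named here vehicle, dimethyl itaconate, LPS, and dimethyl itaconate plus LPS. In experiment 2, 3 libraries of Irg1-/- cells and 3 of wild-type cells were compared, all after 24 h of 100 ng/ml LPS with 50 ng/ml IFNg, with no unstimulated group. Irg1, listed as Acod1, encodes the enzyme that makes itaconate. The labels do not say whether replicates were separate animals or separate cultures, so p-values measure only the spread between these samples.

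Chemokine receptors are membrane proteins with a serpentine fold that couple to inhibitory G proteins and steer a cell up a gradient of chemokine. Ccr2 brings monocytes out of the marrow towards Ccl2, Cx3cr1 binds fractalkine and marks patrolling monocytes and many resident macrophages, and Cxcr4 holds cells in the marrow through Cxcl12. Ccr1 and Ccr3 bind overlapping sets of inflammatory CC chemokines, with Ccr3 best known from eosinophils, and Ccr7 leads maturing dendritic cells to lymph nodes. Ccrl2 is an atypical receptor that binds chemerin without classical G protein signalling.

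In the GRCm38 build, 5 of the 7 genes are on chromosome 9. Ccr1 (Entrez gene 12768, 123962126 to 123968692, minus strand), Ccr3 (Entrez gene 12771, 124017825 to 124031692, plus strand) and Ccr2 (Entrez gene 12772, 124101918 to 124109140, plus strand) lie close to each other. Ccrl2 (Entrez gene 54199, 111054834 to 111057518, minus strand) and Cx3cr1 (Entrez gene 13051, 120048683 to 120068296, minus strand) lie elsewhere on that chromosome. Cxcr4 (Entrez gene 12767, minus strand) is on chromosome 1 from 128588199 to 128592299, and Ccr7 (Entrez gene 12775, minus strand) is on chromosome 11 from 99144199 to 99155077. Among the 7, only Cx3cr1 overlaps another RefSeq gene, Gm33858. Since the strand setting of the counting is not given in the sources used here, reads of that pair cannot be told apart.

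Libraries held 955718 to 7629669 counts in experiment 1 and 3088644 to 5491684 in experiment 2. The shallowest was LPS replicate 3, in which the 2 counts of Ccr2 make 3.64 CPM, that is counts per TMM-scaled library total. Acod1 was at 4142, 4677 and 4237 CPM in wild-type cells and at 28.5, 14.9 and 31.5 CPM in Irg1-/- cells of experiment 2. All 10 macrophage markers on a list were detected in every group. Their summed level, on unscaled library totals as for all marker sums, was 8922 to 12453 CPM with vehicle, 5183 to 6569 with dimethyl itaconate, 3250 to 4209 with LPS, 3670 to 4852 with both, 2847 to 3126 in wild-type and 2764 to 3266 in Irg1-/- cells. The receptor changes below thus ran beside a lower marker level in the treated groups of experiment 1, whose part in them was not tested. Of 8 neutrophil markers 7 were measured, and their sum was 336 to 484 CPM with vehicle, 163 to 299.7 with dimethyl itaconate, 136 to 275 with LPS and 206 to 323 with both, with Mpo at 0 in the groups given LPS. Stromal markers summed to 44.4 to 77.6 CPM with vehicle and to 26.6 to 30.9 with dimethyl itaconate. In such bulk RNA, fewer cells that express a receptor and less RNA per cell cannot be told apart.

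LPS against vehicle asked how the receptors responded to endotoxin alone. Ccrl2, Ccr1 and Ccr3 rose and Cxcr4 and Ccr2 fell, so that 5 of the 6 receptors with enough counts to test were called at an adjusted p under 0.05. Among all 10285 genes tested, 34.3% were called, 16.0% higher and 18.4% lower. Ccr7 had too few counts for a test in experiment 1. Levels are CPM on TMM-scaled totals, given per library in the order of replicates 1, 2 and 3.

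Ccrl2 was at 12.5, 11.6 and 13.3 CPM with vehicle and at 606, 633 and 1596 CPM after LPS. The LPS libraries were far above the vehicle libraries, and replicate 3 was the highest of them. The gene was 75.1-fold higher (log2 6.23 ± 0.43 SE, adjusted p = 6.2e-09), and without LPS replicate 3 the log2 change was 5.66 (adjusted p = 2.7e-12). Ccr1 was at 4.96, 1.36 and 3.21 CPM with vehicle and at 12.3, 16.9 and 12.7 CPM after LPS, with no overlap. It was 4.14-fold higher (log2 2.05 ± 0.53, adjusted p = 0.0060). Ccr3 was at 14.4, 21.1 and 16.8 CPM with vehicle and at 29.2, 46.1 and 54.5 CPM after LPS, again without overlap. This was a 2.44-fold increase (log2 1.29 ± 0.38, adjusted p = 0.015), and the call was lost without vehicle replicate 1 or vehicle replicate 3. Markers of eosinophils, basophils and mast cells, the other cells known for Ccr3, summed to 0 to 3.05 CPM in these libraries, and Epx, Fcer1a and Ms4a2 were at 0 in every library of the series.

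Cxcr4 moved the other way. It was at 221, 387 and 250.2 CPM with vehicle and at 0.663, 6.75 and 7.27 CPM after LPS, which rests on 2, 12 and 4 counts. Cxcr4 was 72.9-fold lower (log2 -6.19 ± 0.64, adjusted p = 7.6e-07). The log2 change was -5.40 without LPS replicate 1 and -7.12 without LPS replicate 2, and stayed past the threshold in both. Ccr2 fell 3.35-fold, from 39.9, 25.2 and 62.5 CPM to 9.62, 21.9 and 3.64 CPM (log2 -1.74 ± 0.58, adjusted p = 0.027). The highest LPS library was just under the lowest vehicle library. The call on Ccr2 was lost without vehicle replicate 1, vehicle replicate 3 or LPS replicate 1, in a fit of these groups alone (adjusted p = 0.064) and with a replicate block (adjusted p = 0.064), and the log2 change was -2.43 without LPS replicate 2. Cx3cr1 was at 8.07, 19.7 and 13.6 CPM with vehicle and at 1.33, 5.62 and 9.09 CPM after LPS, where the ranges overlapped. Its difference did not pass the test (log2 -1.61 ± 0.81, adjusted p = 0.13).

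**Figure D1:**
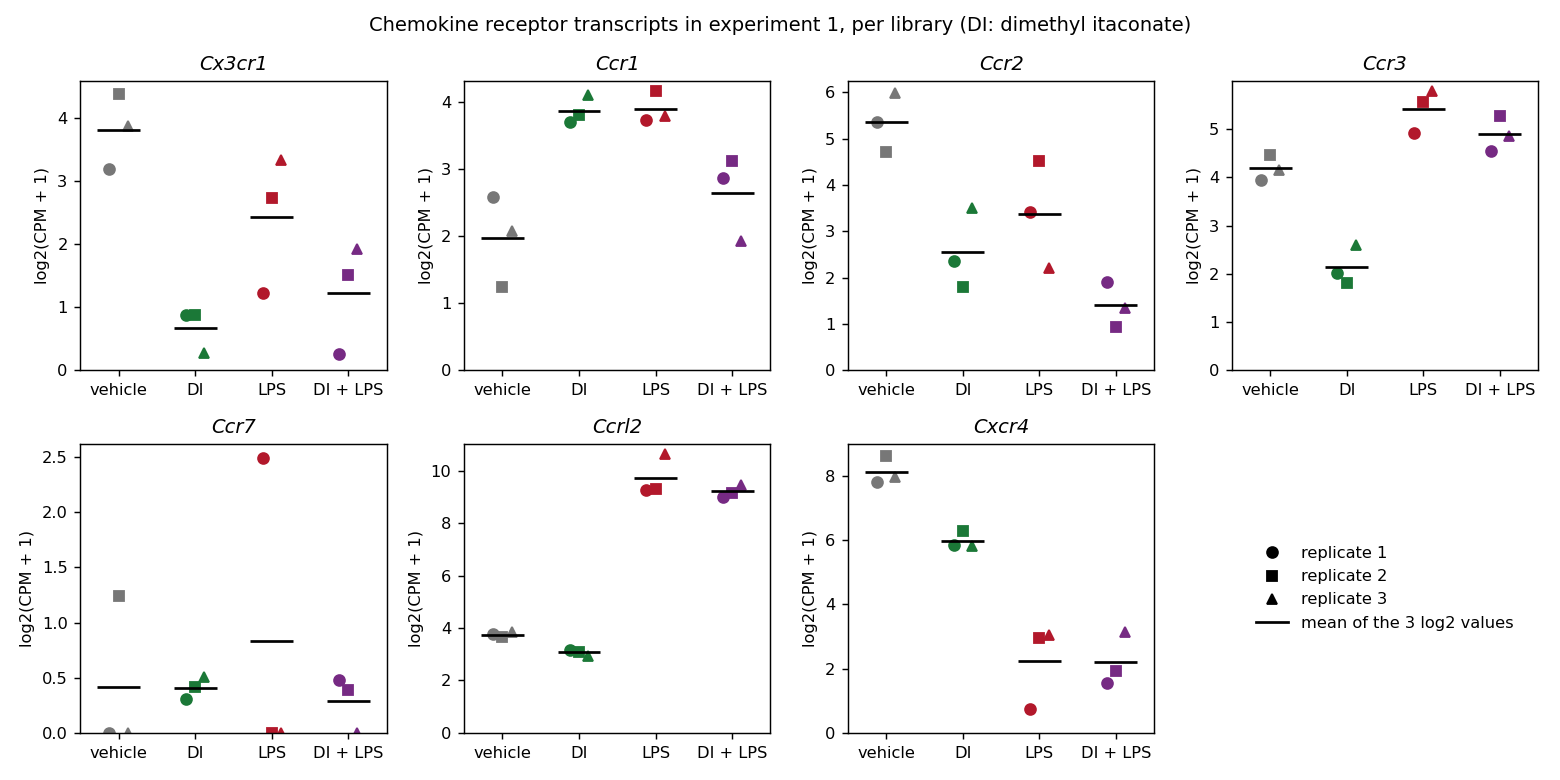
Levels of the 7 receptor transcripts in the 12 libraries of experiment 1, as log2(CPM + 1) on the vertical axis with a separate range per panel; each symbol is a library, DI is dimethyl itaconate, and the line is the mean of 3 log2 values. Ccrl2 is high only in the groups given LPS, Cxcr4 steps down from vehicle to dimethyl itaconate to LPS, and Ccr1 is high with either agent alone.

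Scaling matters for the smaller LPS changes. With TMM scaling the median gene changed by -0.24 on the log2 scale with LPS, and with library totals by -1.17. Under library totals 853 genes were called higher and 4950 lower, against 1641 and 1888 with TMM. On library totals Ccr1 had a log2 change of 1.09 (adjusted p = 0.094) and Ccr3 of 0.31 (adjusted p = 0.50), so neither was called, while Cx3cr1 was (log2 -2.57, adjusted p = 0.0099). Relative to the median gene the values were nearly the same under both scalings: 2.28 and 2.26 for Ccr1, 1.52 and 1.48 for Ccr3, -1.51 and -1.49 for Ccr2, 6.47 and 6.33 for Ccrl2, and -5.95 and -5.92 for Cxcr4. A change of scaling shifts all genes of a comparison by nearly the same amount. This likeness thus follows from the method and does not show that the calls on Ccr1 and Ccr3 hold.

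Promoter sequences of 4 of the 5 receptors called with LPS are shown, a display chosen with the motif matches known. The Ccr2 window overlaps an exon of the gene and is not printed. The RefSeq promoter table, on build GRCm38.p6, held windows for 6 of the 7 genes. Ccrl2 had 3 windows, of which only the most upstream was used. Capitals mark a kappaB consensus, the binding motif of NF-kB, searched as GGG, a purine, any 2 bases, 2 pyrimidines and CC on both strands of the 250 bases before the start. Each sequence is the last part of that window on the strand of the gene, 5′ to 3′, ending at or just before a listed start of transcription. For Ccr3 that start, at 124021971, lies inside the gene, which spans 124017825 to 124031692.
Ccrl2, chr9:111057520-111057718, minus strand: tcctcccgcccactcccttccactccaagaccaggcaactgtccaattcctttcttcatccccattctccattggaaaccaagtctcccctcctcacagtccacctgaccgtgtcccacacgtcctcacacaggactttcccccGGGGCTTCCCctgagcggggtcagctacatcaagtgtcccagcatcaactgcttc
Ccr1, chr9:123968693-123968892, minus strand: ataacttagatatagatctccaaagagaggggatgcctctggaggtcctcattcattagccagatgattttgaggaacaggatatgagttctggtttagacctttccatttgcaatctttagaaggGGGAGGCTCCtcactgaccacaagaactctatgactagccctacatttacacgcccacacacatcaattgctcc
Ccr3, chr9:124021771-124021970, plus strand: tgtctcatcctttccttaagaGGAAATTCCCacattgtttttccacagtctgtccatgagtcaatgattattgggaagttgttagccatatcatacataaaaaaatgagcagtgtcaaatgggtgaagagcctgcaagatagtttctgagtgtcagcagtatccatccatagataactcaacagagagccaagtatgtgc
Cxcr4, chr1:128592300-128592499, minus strand: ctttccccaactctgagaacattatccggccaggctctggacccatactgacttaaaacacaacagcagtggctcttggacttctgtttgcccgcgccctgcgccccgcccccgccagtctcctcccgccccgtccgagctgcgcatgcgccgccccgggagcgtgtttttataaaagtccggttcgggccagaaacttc
The match GGGGCTTCCC began 56 bases before the start of Ccrl2 and reads as a match on both strands. In Ccr1 the match GGGAGGCTCC began 74 bases before the start. In Ccr3 the match GGAAATTCCC, on the opposite strand, began 179 bases before the start that lies inside the gene. The windows of Cxcr4, Ccr2 and Cx3cr1 held none, and 7.25% of 32851 RefSeq promoter windows of this length held at least 1. A match describes letters in a window and was not tested for binding.

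Dimethyl itaconate against vehicle asked what the ester did in resting cells. Here 4 receptors, Cx3cr1, Ccr2, Ccr3 and Cxcr4, fell and 1, Ccr1, rose, which makes 5 of 6 tested. Among all genes 2.84% were called, 1.33% higher and 1.51% lower. The comparison shares its vehicle libraries with the LPS comparison.

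Cx3cr1 was at 0.825, 0.827 and 0.210 CPM with dimethyl itaconate, all below the vehicle libraries, on 14 counts in all against 226. It was 21.9-fold lower (log2 -4.45 ± 0.84, adjusted p = 0.0049), and this call held in all 12 fits that left out a library. Ccr2 was at 4.12, 2.48 and 10.4 CPM, 7.40-fold lower than with vehicle (log2 -2.89 ± 0.57, adjusted p = 0.0072). That call was lost without vehicle replicate 3, dimethyl itaconate replicate 1 or dimethyl itaconate replicate 2, and the log2 change was -3.66 without dimethyl itaconate replicate 3, the highest library. Ccr3 was at 3.06, 2.48 and 5.04 CPM, 4.82-fold lower (log2 -2.27 ± 0.40, adjusted p = 0.0028), with no overlap and a call that held in all 12 such fits. Ccr3 thus fell with the ester and rose with LPS.

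Cxcr4 was at 56.5, 76.7 and 55.1 CPM with dimethyl itaconate, 4.55-fold lower (log2 -2.19 ± 0.47, adjusted p = 0.014). All 3 libraries were below every vehicle library and above every LPS library. Of the markers of neutrophils, which also carry Cxcr4, Retnlg moved beside it. Retnlg was at 14.1 ± 3.46 CPM with vehicle, 3.10 ± 1.61 with dimethyl itaconate, 0 in the 3 LPS libraries and 0.895 ± 0.884 with both. Other neutrophil markers did not follow this order. S100a8, S100a9, Ngp and Camp were at 82.7, 145, 30.9 and 12.7 CPM with vehicle and at 71.2, 142, 32.1 and 23.3 CPM with LPS. Mpo and Elane were low, at 0.248 and 1.12 CPM with vehicle. The part of neutrophils in the Cxcr4 change was not tested. Leaving out vehicle replicate 2 or any 1 of the dimethyl itaconate libraries ended the call. Ccr1 was at 12.0, 12.9 and 16.1 CPM, 4.03-fold higher (log2 2.01 ± 0.50, adjusted p = 0.035). These values were close to those after LPS, and none overlapped with vehicle. The Ccr1 call was the least firm: it was lost without any 1 of the vehicle or dimethyl itaconate libraries, without replicate 1 of dimethyl itaconate plus LPS, with library totals (adjusted p = 0.086) and with a block for replicate number. Ccrl2 was at 8.01, 7.44 and 6.72 CPM, each below every vehicle library, and did not pass (log2 -0.76 ± 0.36, adjusted p = 0.37).

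Dimethyl itaconate plus LPS against LPS asked what the ester changed in stimulated cells. By edgeR, only Ccr2 was called of the 6 tested, lower (DESeq2 called Ccr2 and Ccr1), while 15.9% of all genes were called, 8.38% higher and 7.53% lower. Ccr2 was at 2.75, 0.919 and 1.56 CPM with both agents, on 14, 3 and 5 counts, and all 3 libraries were below the LPS libraries. It was 6.91-fold lower (log2 -2.79 ± 0.69, adjusted p = 0.010). The call was lost without LPS replicate 2 (log2 -2.08, adjusted p = 0.066) or replicate 2 of the pretreated group, and in a fit of these groups alone Ccr2 did not pass the filter on low counts.

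By edgeR, none of the 3 receptors that LPS had raised was called against LPS alone, and DESeq2 called Ccr1 lower. Ccrl2 was at 515, 566 and 700.2 CPM with both agents (log2 -0.67 ± 0.34 against LPS, adjusted p = 0.20), and the difference was -0.08 without LPS replicate 3. Ccr3 was at 22.4, 37.7 and 27.99 CPM (log2 -0.53, adjusted p = 0.38). Ccr1 was at 6.28, 7.66 and 2.80 CPM, below all 3 LPS libraries, and did not pass in edgeR (log2 -1.32, adjusted p = 0.098), while DESeq2 gave -1.40 (adjusted p = 0.029). Cxcr4 was at 1.96, 2.76 and 7.78 CPM, overlapping with LPS (log2 0.05 ± 0.68, adjusted p = 0.97), with a sign that turned under RLE scaling (-0.022) and not with library totals (0.18). Cx3cr1 was at 0.196, 1.84 and 2.80 CPM, on 1, 6 and 9 counts (log2 -1.54, adjusted p = 0.28). A p that misses the threshold does not show that these levels were equal.

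Dimethyl itaconate plus LPS against dimethyl itaconate asked for the LPS response of pretreated cells. By edgeR, Ccrl2 and Ccr3 rose and Cxcr4 fell, 3 of 6 (DESeq2 also called Ccr1 and Ccr2), beside 18.9% of all genes, 11.4% higher and 7.56% lower. Ccrl2 was 80.1-fold higher (log2 6.32 ± 0.43, adjusted p = 1.1e-08). Ccr3 was 8.14-fold higher (log2 3.03 ± 0.40, adjusted p = 2.3e-05), against 2.44-fold in cells without the ester. Cxcr4 was 15.5-fold lower (log2 -3.95 ± 0.55, adjusted p = 3.7e-05), and its log2 change was -4.75 without replicate 3 of the pretreated LPS group. Ccr1 (log2 -1.28, adjusted p = 0.081) and Ccr2 (log2 -1.64, adjusted p = 0.092) did not pass with all libraries. Without LPS replicate 3, a library of neither group compared, both were called (adjusted p = 0.039 and 0.038, with 10628 genes tested in place of 10285), and with library totals both were as well (log2 -1.86 and -2.23, adjusted p = 0.014 and 0.023). Cx3cr1 did not pass (log2 1.30, adjusted p = 0.37).

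**Figure D2:**
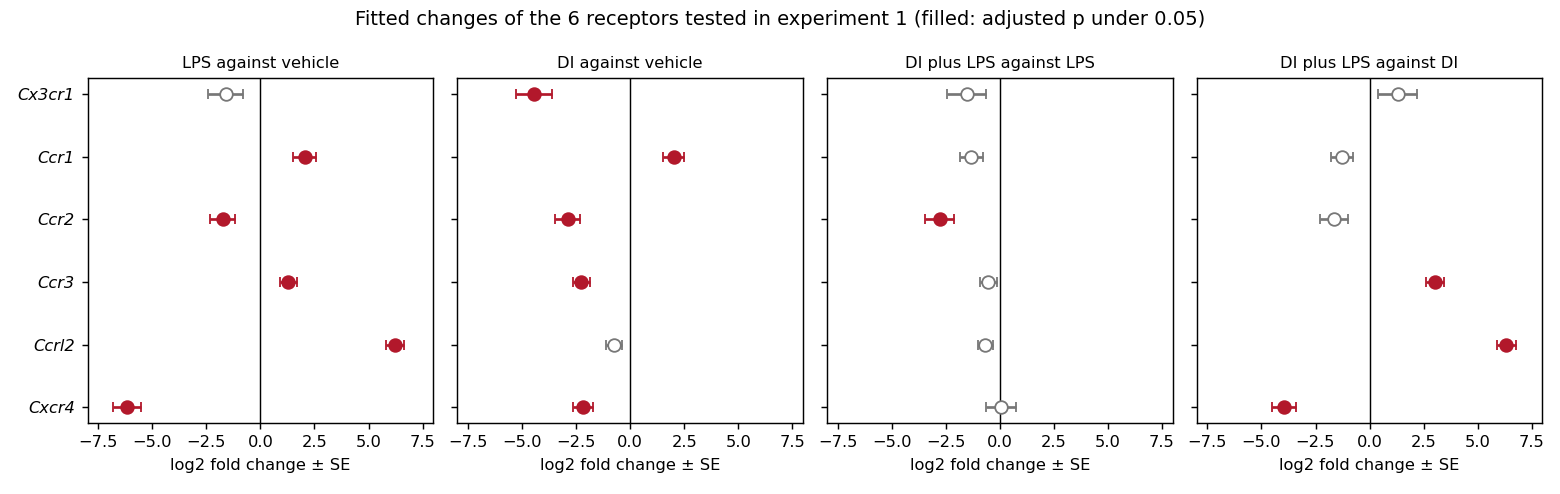
Fitted log2 fold changes (horizontal axis, bars are standard errors) of the 6 receptors tested in experiment 1, 1 panel per comparison; DI is dimethyl itaconate, and filled symbols have an adjusted p under 0.05 over all genes. Ccrl2 lies above 6 in both LPS comparisons, and Ccr2 is the only filled receptor for dimethyl itaconate plus LPS against LPS. Comparisons that share a group are not independent.

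The interaction of the ester and LPS asked whether the effect of either agent depended on the other. By edgeR, Ccr1 was the only receptor called of 6 (DESeq2 called Ccr1 and Ccr3), where 2.91% of all genes were, 1.39% higher and 1.52% lower. Its level was 3.18 ± 1.80 CPM (SD, n = 3) with vehicle, 13.7 ± 2.13 with dimethyl itaconate, 13.95 ± 2.54 with LPS and 5.58 ± 2.51 with both. The interaction was -3.33 ± 0.72 on the log2 scale (adjusted p = 0.017): the ester went with a change of 2.01 without LPS and of -1.32 with it. That call was lost without vehicle replicate 3, dimethyl itaconate replicate 3, or replicate 1 or 3 of the group given both, and its adjusted p lay between 7.6e-05 and 0.062 over 17 alternatives. For Ccr3 the interaction was 1.74 ± 0.54 (adjusted p = 0.094), called without LPS replicate 3 (1.87, adjusted p = 0.030), by DESeq2 (1.69, adjusted p = 0.035) and with library totals (2.12, adjusted p = 0.047). For Cx3cr1 it was 2.91 (adjusted p = 0.21) and for Cxcr4 2.23 (adjusted p = 0.15). Ccr2 (0.10, adjusted p = 0.98) and Ccrl2 (0.09, adjusted p = 0.95) had values near 0, whose sign turned when single libraries were left out.

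By mean level in experiment 1, Cxcr4 ran from vehicle (286 ± 88.4 CPM) through dimethyl itaconate (62.8 ± 12.1) to LPS (4.89 ± 3.67) and both agents (4.17 ± 3.15), where only the last neighbours overlapped. Ccrl2 ran from LPS (945 ± 564 CPM) and both agents (594 ± 95.4), which overlapped, to vehicle (12.5 ± 0.869) and dimethyl itaconate (7.39 ± 0.649), which did not. Ccr3 ran from LPS (43.3 ± 12.9 CPM) and both agents (29.4 ± 7.75), which overlapped, to vehicle (17.4 ± 3.40) and dimethyl itaconate (3.53 ± 1.34), each apart from its neighbour. Ccr2 ran from vehicle (42.5 ± 18.8 CPM) to LPS (11.7 ± 9.33), dimethyl itaconate (5.67 ± 4.18) and both (1.74 ± 0.928), where only vehicle was apart from its neighbour. In the order for Cx3cr1, from vehicle (13.8 ± 5.84 CPM) to LPS (5.35 ± 3.89), both (1.61 ± 1.32) and dimethyl itaconate (0.621 ± 0.356), all neighbours overlapped. For Ccr1 LPS and dimethyl itaconate overlapped, dimethyl itaconate was apart from both agents together, and these overlapped with vehicle.

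Irg1-/- against wild type asked whether loss of the itaconate enzyme changed the receptors after LPS and IFNg. Without a term for replicate number, none of the 6 receptors tested was called by edgeR, where 0.0632% of all genes were, 0.0105% higher and 0.0527% lower, and DESeq2 called none of them either. At an unadjusted p under 0.05, 3 of the 6 receptors (Ccr2, Ccrl2 and Cxcr4) and 665 of 9491 genes passed. Same-numbered libraries deviated together in all 3 pairs, and in the fit with replicate number as a block 2 receptors were called, Ccr2 higher and Ccrl2 lower. That fit called 6.26% of all genes, 2.90% higher and 3.36% lower, and left 2 residual degrees of freedom.

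Ccr2 was at 114, 89.8 and 44.7 CPM in wild-type cells and at 185, 158 and 101 CPM in Irg1-/- cells. The ranges overlapped, since both genotypes were highest in replicate 1 and lowest in replicate 3, and the Irg1-/- library was the higher in 3 of 3 pairs. With the block Ccr2 was 1.86-fold higher (log2 0.89 ± 0.12, adjusted p = 1.1e-06), and without it the estimate was 0.85 ± 0.32 (adjusted p = 0.61). Ccrl2 was at 214, 245 and 254 CPM in wild-type and at 145, 177 and 183 CPM in Irg1-/- cells, without overlap. With the block it was 1.41-fold lower (log2 -0.50 ± 0.10, adjusted p = 0.0011), and without it the estimate was -0.50 ± 0.18 (adjusted p = 0.58). In the blocked fit both remained called when any 1 pair was left out.

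Cxcr4 was at 18.9, 19.5 and 19.0 CPM in wild-type and at 10.1, 13.3 and 12.5 CPM in Irg1-/- cells, lower in 3 of 3 pairs without overlap. It did not pass either fit (log2 -0.68 ± 0.23, adjusted p = 0.57, and adjusted p = 0.063 with the block). Ccr7 was at 12.3, 13.7 and 10.4 CPM in wild-type and at 10.7, 6.90 and 6.23 CPM in Irg1-/- cells (log2 -0.60, adjusted p = 0.78, and 0.22 with the block). Ccr1 was at 28.9, 37.7 and 44.0 CPM against 44.1, 33.4 and 50.0 CPM, with overlapping ranges (log2 0.20, adjusted p = 0.96). Ccr3 was at 3.32, 6.39 and 3.54 CPM in wild-type and at 2.86, 7.17 and 3.29 CPM in Irg1-/- cells (log2 -0.02, adjusted p = 1.0), with a sign that turned on library totals. Cx3cr1 was at 2.33, 2.24 and 1.11 CPM against 4.77, 1.06 and 1.90 CPM, on 4 to 25 counts a library, and was too low to test.

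**Figure D3:**
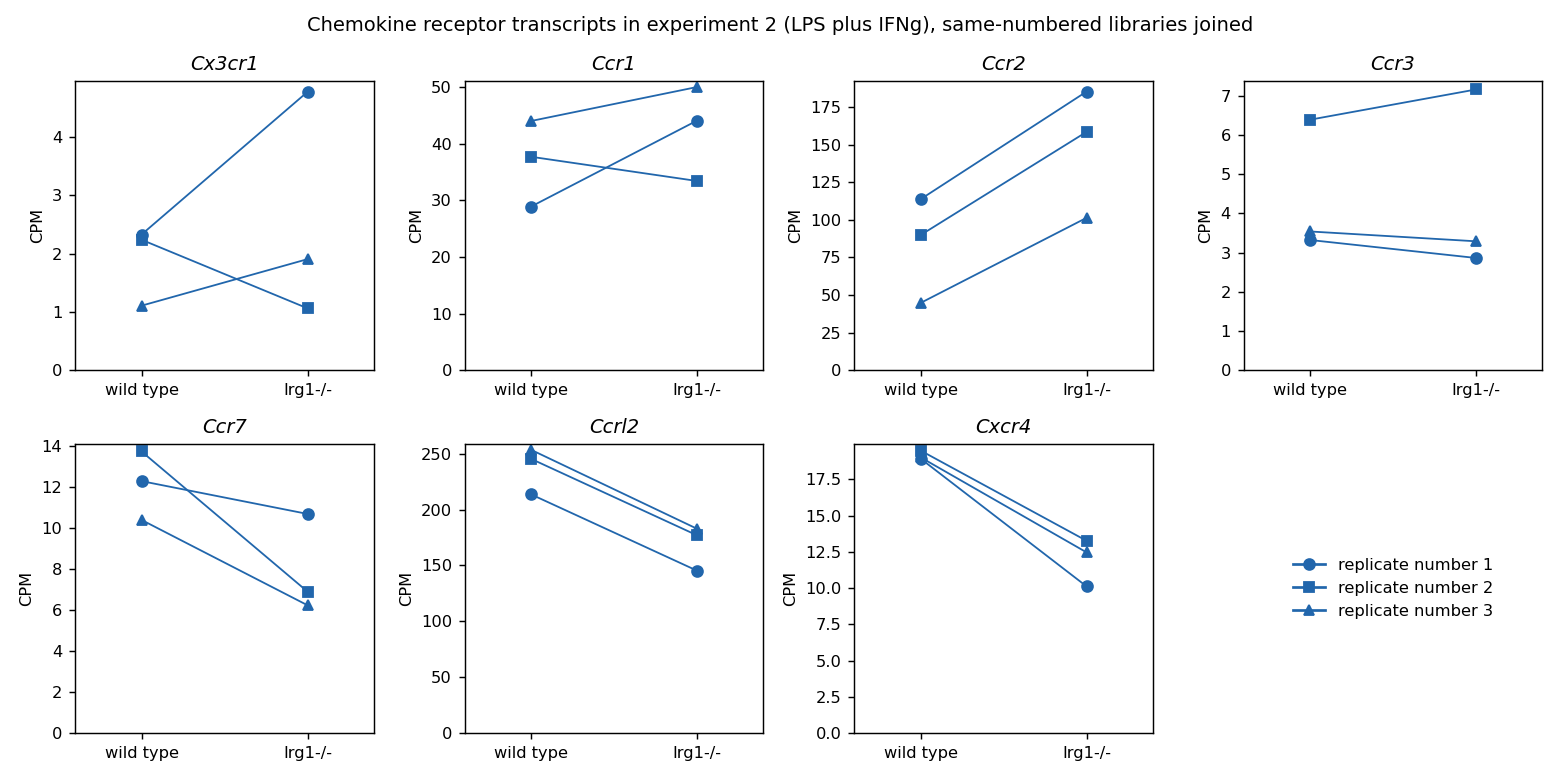
CPM (vertical axis from 0, own range per panel) of the 7 receptors in wild-type and Irg1-/- macrophages after LPS plus IFNg, with libraries of the same replicate number joined. The 3 lines of Ccr2 rise and those of Ccrl2, Cxcr4 and Ccr7 fall, while those of Cx3cr1, Ccr1 and Ccr3 go both ways.

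Ccr7 was seen mainly in experiment 2. In experiment 1 its counts were 0, 4 and 0 with vehicle, 2, 2 and 4 with dimethyl itaconate, 14, 0 and 0 with LPS, and 2, 1 and 0 with both. All 14 counts of the LPS group were in replicate 1. In experiment 2 it had 37, 43 and 47 counts in wild-type and 56, 26 and 36 in Irg1-/- cells. The tables were scaled separately, and the experiments differ in time and in IFNg, so these levels are given side by side only. Markers of dendritic cells, which are known for Ccr7, summed to 10.2 to 13.9 CPM in wild-type and 8.20 to 13.0 CPM in Irg1-/- cells. There Flt3 and Cd209a were at 0, and the mean of Xcr1 on TMM-scaled totals was 8.34 and 7.40 CPM. In experiment 1 these markers summed to 9.42 to 17.4 CPM with LPS and 5.28 to 8.08 CPM with vehicle. Sums were 0.573 to 2.75 CPM with dimethyl itaconate and 0.671 to 2.73 CPM with both agents. The part of dendritic cells in the Ccr7 levels was not tested.

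Of the other chemokine receptors on a list, Ccr9 was called higher with LPS (log2 3.57 ± 0.98, adjusted p = 0.0090), although 1 of its 3 LPS libraries overlapped with vehicle. In pretreated cells Ccr9 and Cmklr1, a signalling receptor for chemerin, were both higher with LPS, Cmklr1 by 3.74-fold (adjusted p = 0.018).

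Among 15 ligand genes of the receptors, 10 could be tested in experiment 1. Ccl11, Ccl19, Ccl21a, Cxcl12 and Rarres2, the chemerin gene, had too few counts, so the main ligands of Ccr7, Cxcr4 and Ccrl2 could not be tested. With LPS, 8 of 10 rose and 1, Ccl6, fell, and the list had a median log2 change of 4.73 against -0.24 for all genes tested, of which 16.0% were called higher and 18.4% lower. Ccr2 ligands rose while Ccr2 fell: Ccl2 was 272-fold higher (adjusted p = 4.7e-10), Ccl12 260-fold (adjusted p = 1.4e-07) and Ccl7 150.4-fold (adjusted p = 9.7e-07). Ccl5, a ligand of Ccr1 and Ccr3, was 359-fold higher (adjusted p = 1.8e-09), and Cx3cl1, the ligand of Cx3cr1, passed as well (log2 2.99 ± 0.97, adjusted p = 0.023). That rise rests mainly on LPS replicate 1, since Cx3cl1 had 56, 9 and 0 counts in the LPS libraries. In the shallow LPS replicate 3, 1 count makes 1.82 CPM, above the highest vehicle library of Cx3cl1 (1.36 CPM). The 0 in that library thus does not show a level below vehicle.

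With dimethyl itaconate alone, edgeR called 2.84% of all genes, and 1421 of 10285 had an unadjusted p under 0.05. Of the 10 ligands edgeR called none, 1 had an unadjusted p under 0.05, and DESeq2 called none. Before LPS the ester went with lower Ccr2 ligands together with lower Ccr2. Ccl7 was at 10.8 ± 5.21 CPM with both agents against 246 ± 108 with LPS, 23.1-fold lower (adjusted p = 0.00016). Ccl2 was 13.6-fold lower (adjusted p = 1.9e-06) and Ccl12 5.28-fold lower (adjusted p = 0.0039). The eotaxin Ccl24, a Ccr3 ligand, was 8.10-fold lower (adjusted p = 0.037), and Mif, which can bind Cxcr4, was higher (log2 1.24 ± 0.33, adjusted p = 0.017). Of the Ccr1 ligands, Ccl5 (log2 -0.01, adjusted p = 0.99), Ccl3 (log2 -0.20, adjusted p = 0.76) and Ccl9 (log2 -0.05, adjusted p = 0.94) did not pass. In pretreated cells LPS raised 6 of 10 ligands, where 11.4% of all genes were called higher and 7.56% lower. Ccl5 rose 201-fold and Ccl12 89.4-fold (adjusted p = 1.1e-08 and 3.2e-06). For Irg1-/- against wild type, edgeR without the block called 0.0632% of all genes, and 665 of 9491 had an unadjusted p under 0.05. None of 8 tested ligands was called by edgeR or DESeq2, and 4 had an unadjusted p under 0.05. With the block 4 fell, Ccl9, Ccl5, Ccl12 and Mif, Ccl9 by 1.66-fold (adjusted p = 2.4e-05). That blocked fit called 2.90% of all genes higher and 3.36% lower.

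**Figure D4:**
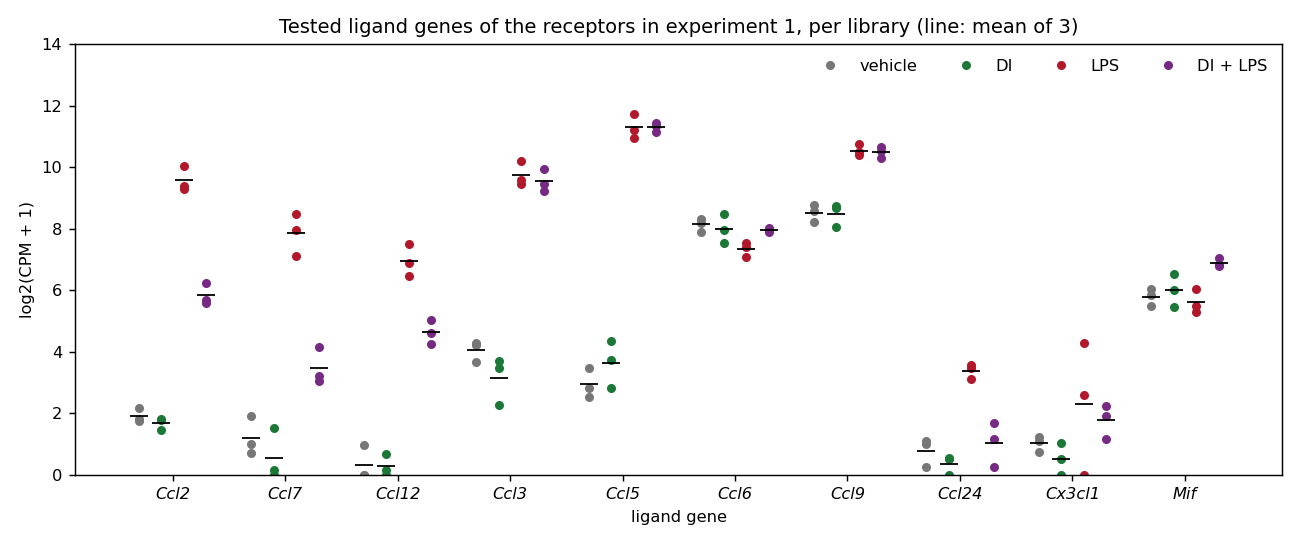
Levels of the 10 tested ligand genes in experiment 1, as log2(CPM + 1) on the vertical axis; points are the 3 libraries of a group and lines their mean. The Ccr2 ligands Ccl2, Ccl7 and Ccl12 sit high with LPS and lower with dimethyl itaconate plus LPS, while the points of Ccl3, Ccl5 and Ccl9 overlap between those groups.

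Behind the receptors, 27 genes of their signalling path were tested, from G protein subunits to arrestins, which switch receptors off, and RGS proteins, which shorten G protein signals. With LPS 8 rose and 8 fell, where 16.0% of all genes were called higher and 18.4% lower. Rgs1 rose 8.53-fold (log2 3.09 ± 0.52, adjusted p = 0.00016), with 413, 419.5 and 49.1 CPM after LPS. The arrestin gene Arrb1 fell 21.6-fold (log2 -4.43 ± 0.64, adjusted p = 3.2e-05), and Rgs18 fell 5.82-fold (adjusted p = 0.0022). Rgs3 was at 0 counts in the 3 LPS libraries against 2.9985 ± 0.248 CPM with vehicle (adjusted p = 0.0052). With the ester alone, edgeR called 2.84% of all genes, and 1421 of 10285 had an unadjusted p under 0.05. Of the 27 signalling genes edgeR called none, 5 had an unadjusted p under 0.05, and DESeq2 called 1, Grk3.

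With the ester before LPS, 3 signalling genes were higher and 8 lower than with LPS alone, where 8.38% of all genes were higher and 7.53% lower. Rgs1 was 12.0-fold lower (adjusted p = 2.0e-04) and Rgs2 was 5.39-fold lower (adjusted p = 6.4e-05), while Arrb1 was 5.84-fold higher (adjusted p = 0.014). In pretreated cells 4 rose and 6 fell with LPS, where 11.4% of all genes were called higher and 7.56% lower. Among those that fell was Plcb2, a phospholipase driven by G protein subunits, 6.70-fold lower (adjusted p = 0.0070). The interaction was called for 5, where 2.91% of all genes were, 1.39% higher and 1.52% lower. Values were positive for Rgs3, Arrb1 (3.06) and Arrb2 (2.57) and negative for Rgs1 (-3.75) and Rgs2 (-1.76). For Irg1-/- against wild type, edgeR without the block called 0.0632% of all genes, and 665 of 9491 had an unadjusted p under 0.05. Of 26 signalling genes edgeR called none and 1 had an unadjusted p under 0.05, Pik3cg, which DESeq2 called. With the block, which called 6.26% of all genes, Pik3cg was called too. This kinase, which chemokine receptors activate in leukocytes, was 2.66-fold higher (log2 1.41 ± 0.24, adjusted p = 8.0e-05).

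For each tested receptor the genes with the most similar pattern over the 12 libraries of experiment 1 were found by the root mean square difference of centred log2 CPM. Ccrl2 was followed most closely by Ifi211 (0.37) and Ifit3b (0.46), where the median gene differed from Ccrl2 by 3.38. For Ccr3 the closest were Cxcl16 and Dab2 (0.47 each, median gene 1.72), and for Ccr1 Hspa4l (0.56) and Tasor (0.57, median gene 1.43). Ccr2 was closest to Cyp27a1 (0.61) and Rasgrp2 (0.76, median gene 1.93). Cxcr4 was closest to Engase (0.67) and Rasgrp3 (0.89, median gene 2.78). Cx3cr1 was closest to H2-Eb1 (0.76), which encodes an MHC class II chain, and C1qa (0.88), a complement gene, with the median gene at 1.98. These libraries share depth and treatment groups, and likeness is given as a description.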

How the data were processed

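Polyadenylated RNA was measured by 3′ end sequencing, strand-specific per the labels' protocols. Per the submitters' processing notes, STAR, HTSeq and DESeq2 were used on build mm10. Versions and annotation are not given in the sources used here. Values in the deposited tables are raw counts for each Entrez gene identifier. Of 24052 genes, 23969 matched a RefSeq symbol. Unmatched genes were tested but not named. Counts include PCR copies, since the labels describe no molecular identifiers.

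Each experiment was fitted with edgeR 4.0.16 (R 4.3.3): TMM scaling, filterByExpr with a minimum count of 10, a mean per group over all groups of the experiment, a 2-sided quasi-likelihood F test, and Benjamini-Hochberg adjustment over all 10285 or 9491 genes tested, called under 0.05. Residual degrees of freedom were 8 and 4. Fold changes use a prior count of 0.125, and likeness a prior count of 2. Each SE of an edgeR log2 change is its absolute value divided by the square root of its F statistic. It is thus derived from the test and not fitted separately. The method was tested on simulated counts for dimethyl itaconate against vehicle and for Irg1-/- against wild type, without the replicate block. That run does not bear on the blocked calls or on the interaction. Same-numbered libraries were judged paired where every pair of deviations from group means correlated above 0.1. In experiment 2 all 3 did (0.354 to 0.455), in experiment 1 6 of 18 did. Alternatives were DESeq2 1.42.0, no filter, RLE scaling, library totals, the replicate block, the compared groups alone and each library left out. The members and gene lists were chosen with earlier results of these data known. The text names the 7 receptors in every comparison and, per list and comparison, up to 4 called genes of largest change. Other named genes (Grk3, Pik3cg, Rgs2, Arrb2, untested ligands, Ccl3, Ccl5, Ccl6, Ccl9, Mif, Cx3cl1, where beyond that rule) were chosen after their values were seen. Marker sums are CPM of library totals.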

Additional observations from a re-analysis of the deposited data

Results flagged for a closer look

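Ccr1 was flagged because the effect of dimethyl itaconate differed between cells with and without LPS by a test of that difference. The interaction was -3.33 on the log2 scale (SE 0.72, edgeR adjusted p = 0.017). The ester went with a log2 change of 2.01 in resting cells and of -1.32 in LPS-treated cells, where the latter did not pass the test on its own (adjusted p = 0.098). The counts behind it were 51, 4 and 20 with vehicle, 102, 78 and 153 with the ester, 37, 30 and 7 with LPS, and 32, 25 and 9 with both.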

How the results depend on the processing

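Of the values of single receptors under alternative settings, 540 kept their direction and side of the threshold, 31 lost a call, 24 gained a call and 20 changed sign, none of these 20 being called. With all libraries 5, 5, 1, 3, 1 and 0 receptors were called for LPS, dimethyl itaconate, dimethyl itaconate plus LPS against LPS, the same against dimethyl itaconate, the interaction, and Irg1-/-. The cause of the differences that follow was not tested.

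DESeq2 called 2 receptors for dimethyl itaconate plus LPS against LPS, 5 for the same against dimethyl itaconate and 2 for the interaction, and 654 genes for dimethyl itaconate, 816 for the interaction and 36 for Irg1-/-. With no filter, 2 receptors were called for the interaction, and 458 genes for dimethyl itaconate, 497 for the interaction and 40 for Irg1-/-. Library totals gave 5803 genes for LPS, 5 receptors for dimethyl itaconate plus LPS against dimethyl itaconate and 2 for the interaction. They gave 72 higher and 194 lower genes for dimethyl itaconate (137 and 155 with TMM), 901 and 527 for dimethyl itaconate plus LPS against LPS (862 and 774), 709 and 2027 for the same against dimethyl itaconate (1170 and 778), 215 and 86 for the interaction (143 and 156), and 3 and 6 for Irg1-/- (1 and 5). With the compared groups alone, calls were 2108 genes for LPS, 1013 for dimethyl itaconate, 653 for dimethyl itaconate plus LPS against LPS (0 receptors, 4 tested) and 3196 for the same against dimethyl itaconate (5 receptors).

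The replicate block in experiment 2 called 594 genes and 2 receptors, and added fits, chosen after seeing the data, of the block without 1 pair called 631, 412 and 291 genes and 2 receptors each. In experiment 1, where numbers were not judged to pair libraries, the block ended the calls on Ccr2 with LPS and on Ccr1 with dimethyl itaconate and no other receptor call.

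Leaving out a library in turn gave 3 to 5 receptors for LPS, 2 to 5 for dimethyl itaconate, 0 to 1 for dimethyl itaconate plus LPS against LPS, 3 to 5 for the same against dimethyl itaconate and 0 to 2 for the interaction. Genes called ranged from 140 to 803 for dimethyl itaconate, 885 to 1948 for dimethyl itaconate plus LPS against LPS, 132 to 806 for the interaction and 3 to 6 for Irg1-/-.

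Signs turned for Cxcr4 in dimethyl itaconate plus LPS against LPS (-0.11 with DESeq2, -0.022 with RLE scaling, -0.13 with these groups alone, and -0.73 to 1.00 without a library). They also turned without a library for the interaction of Ccr2 (-0.46 to 0.88) and of Ccrl2 (-0.073 to 0.66), and for Ccr3 in Irg1-/- cells (-0.50 to 0.33 without a library, 0.012 with library totals, 0.039 and 0.014 for the block without replicate 1 or 3). Depth limits Cx3cr1, Ccr7 and, after LPS, Cxcr4 and Ccr2, which rest on a few counts per library.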
